A study of Mus musculus with 12 samples.

Results

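The genes described here are 38 imprinted genes of the mouse, a list of protein-coding genes chosen by name as imprinted. The list was drawn up with earlier results of these data known. All 38 were found among the 21631 protein-coding genes of chromosomes 1 to 19 and X in the RefSeq table used here. By textbook knowledge, 18 are expressed mainly from the paternal copy (Igf2, Mest, Peg3, Usp29, Peg10, Sgce, Plagl1, Nnat, Nap1l5, Impact, Dlk1, Rtl1, Snrpn, Ndn, Magel2, Mkrn3, Slc38a4 and Zdbf2). A further 16 are expressed mainly from the maternal copy (Igf2r, Slc22a2, Slc22a3, Cdkn1c, Phlda2, Kcnq1, Ascl2, Cd81, Tssc4, Osbpl5, Slc22a18, Ube3a, Zim1, Ppp1r9a, Asb4 and Calcr). In the remaining 4 the expressed copy depends on the transcript or tissue (Grb10, Gnas, Inpp5f and Ddc). The groups name the copy expressed where a gene is imprinted, which need not hold in these embryos. Ube3a, for example, is imprinted in neurons.

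The samples were embryos of the C57BL/6 strain, dissociated to single cells and profiled with CoBATCH, in which an antibody guides the Tn5 transposase to chromatin that carries a histone mark. One mark was H3K27ac, acetylation found at active promoters and enhancers, and the other was H3K4me1, methylation found at enhancers and around promoters. The 6 stages were Pre_PS (before the streak, embryonic day 6.0), ES (early streak, days 6.0 and 6.5), MS (mid streak, labelled days 6.0 and 7.0), LS (late streak, from day 7.0), OB (no allantoic bud, up to day 7.5) and EHF (early headfold, day 7.5). Each stage and mark had 1 peak list, pooled over cells and with no replicate, so no difference between stages below has a test or a measured error. The labels say that extraembryonic tissue was dissected away from Pre_PS, ES, MS and LS embryos, and say nothing of this for OB and EHF.

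An imprinted gene is transcribed mainly or only from the copy inherited from a given parent. In many cases, though not in all, the choice is written in the germ line as DNA methylation at CG dinucleotides of an imprinting control region. The zinc finger protein ZFP57, which binds the methylated hexamer TGCCGC, helps to keep that methylation after fertilisation. Many imprinted genes lie in clusters in which a control region and a long non-coding transcript set the state of several genes, and several code for regulators of fetal and placental growth. In an inbred strain the maternal and paternal copies have the same sequence, so the peaks below are those of both copies together.

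The peak lists bear most directly on which of a gene's starts carried a mark. The 8 sequences below are the 250 bases before a RefSeq start (GRCm38.p6), written 5′ to 3′ along transcription with CG dinucleotides in capitals. They set a start fully covered by both marks at the later stages beside a start that was covered in part, in few lists or not at all for Mest, Zdbf2 and Igf2, and add the shared Peg3 and Usp29 start and the start with the highest-ranked peaks, that of Ube3a. The second Mest and Zdbf2 starts and the third Igf2 start lie inside the gene's span.
Mest, the first start, chr6:30733256-30733505, plus strand: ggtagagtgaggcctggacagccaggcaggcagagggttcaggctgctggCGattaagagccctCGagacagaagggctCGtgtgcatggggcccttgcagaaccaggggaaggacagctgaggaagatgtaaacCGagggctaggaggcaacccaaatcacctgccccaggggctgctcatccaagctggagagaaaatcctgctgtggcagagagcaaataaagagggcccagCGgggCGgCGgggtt
Mest, the second start, chr6:30737800-30738049, plus strand: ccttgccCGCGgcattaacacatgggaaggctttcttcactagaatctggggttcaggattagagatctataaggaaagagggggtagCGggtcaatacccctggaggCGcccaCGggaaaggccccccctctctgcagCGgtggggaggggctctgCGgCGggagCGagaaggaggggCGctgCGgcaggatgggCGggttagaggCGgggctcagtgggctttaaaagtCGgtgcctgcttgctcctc
Zdbf2, the first start, chr1:63200108-63200357, plus strand: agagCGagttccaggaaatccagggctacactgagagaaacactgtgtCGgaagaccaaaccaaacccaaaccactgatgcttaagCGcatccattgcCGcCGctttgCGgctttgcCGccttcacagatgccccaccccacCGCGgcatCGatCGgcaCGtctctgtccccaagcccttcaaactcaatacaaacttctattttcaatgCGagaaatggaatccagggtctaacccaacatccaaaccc
Zdbf2, the second start, chr1:63273019-63273268, plus strand: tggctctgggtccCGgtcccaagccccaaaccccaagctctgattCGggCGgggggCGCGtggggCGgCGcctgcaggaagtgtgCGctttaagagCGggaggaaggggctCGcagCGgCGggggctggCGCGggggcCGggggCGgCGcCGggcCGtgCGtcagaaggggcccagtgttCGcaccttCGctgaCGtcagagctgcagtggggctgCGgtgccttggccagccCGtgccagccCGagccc
Igf2, the first start, chr7:142666817-142667066, minus strand: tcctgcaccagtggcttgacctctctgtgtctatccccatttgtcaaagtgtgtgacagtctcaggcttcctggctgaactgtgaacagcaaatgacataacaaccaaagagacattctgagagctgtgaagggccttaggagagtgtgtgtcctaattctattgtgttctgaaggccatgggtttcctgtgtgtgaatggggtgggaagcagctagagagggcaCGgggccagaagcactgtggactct
Igf2, the third start, chr7:142658805-142659054, minus strand: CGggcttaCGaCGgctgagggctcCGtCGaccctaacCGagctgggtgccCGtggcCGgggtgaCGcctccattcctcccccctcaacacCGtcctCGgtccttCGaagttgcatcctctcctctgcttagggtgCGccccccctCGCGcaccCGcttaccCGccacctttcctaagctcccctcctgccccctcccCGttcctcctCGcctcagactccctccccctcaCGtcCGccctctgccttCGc
Peg3 start, chr7:6730420-6730669, minus strand: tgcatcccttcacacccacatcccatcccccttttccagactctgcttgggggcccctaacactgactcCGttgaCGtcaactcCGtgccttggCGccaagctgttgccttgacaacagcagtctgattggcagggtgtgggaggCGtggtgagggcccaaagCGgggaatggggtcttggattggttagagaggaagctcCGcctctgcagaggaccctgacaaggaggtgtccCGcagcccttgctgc
Ube3a start, chr7:59228500-59228749, plus strand: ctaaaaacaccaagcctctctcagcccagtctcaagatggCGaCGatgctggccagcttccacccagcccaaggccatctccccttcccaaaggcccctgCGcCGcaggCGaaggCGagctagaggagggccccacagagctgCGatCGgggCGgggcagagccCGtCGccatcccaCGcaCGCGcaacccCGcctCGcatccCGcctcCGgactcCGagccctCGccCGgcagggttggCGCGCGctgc
The first Mest start had 7 CG dinucleotides and the second 14. For Zdbf2 the first start had 13 and the second 26, and for Igf2 the first had 1 and the third 22. Peg3 had 8 and Ube3a 24. The hexamer TGCCGC, searched on both strands (as TGCCGC or GCGGCA) in the same 250 bases, occurred 2 times before the second Mest start and 3 times before the first Zdbf2 start, and was not found in the other 6. Of 53 starts of the 32 members with RefSeq start windows, 9 (17.0%) held the hexamer, against 10.3% of 21045 starts of coding genes, and 3 (5.66%) held it at least 2 times, against 1.12%. The 3 were that Zdbf2 start and the second and the third Mest starts, which lie 3 bases apart and share their bases. A match is a run of letters and not a measured binding site.

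The lists differed in size. How many fragments each library held is not known here. The Pre_PS H3K27ac list held 13398 peaks, against 30072 to 39635 at the 5 later stages, and 67.3% of the Pre_PS H3K4me1 peaks were floor peaks, those at the lowest fold and p of their list. Pre_PS values were therefore kept apart, and "later stages" below means ES, MS, LS, OB and EHF. Of the marker lists, every gene of the epiblast (5 genes), streak and mesoderm (4 genes) and trophoblast and extraembryonic (6 genes) lists had covered bases in each mark in at least 1 list. The trophoblast list had a summed H3K27ac share of 813 to 974 bp per covered Mb at the later stages, mostly from Tfap2c, Gata2 and Hand1, of which Hand1 is also in the streak list. In H3K27ac its marker Elf5 was at 0 at Pre_PS, MS and EHF and had 9.63 to 12.2 at ES, LS and OB. Esx1 and Ets2 of the same list had H3K27ac shares of 33.7 to 82.6 and 50.5 to 70.6 at the later stages. Of 6 visceral endoderm genes, Afp was at 0 in all 12 lists and Ttr in all but the LS H3K4me1 list. Cubn had covered bases only at LS in H3K27ac and at MS and LS in H3K4me1. Amn, Apoa1 and Hnf4a had covered bases in both marks at all 5 later stages. The later H3K27ac shares of Amn were 88.1 to 102. The part of other cell types in the values of the imprinted genes was not tested.

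Both marks had peaks within or near all 38 imprinted genes, up to 100 kb from an end, at each of the 5 later stages. The measure is the share of a gene, the base pairs covered by peaks in its territory per covered Mb of the list, where the territory is the set of bases nearer to an end of the gene than to any other coding gene's end, up to 100 kb away. All 38 had covered bases at each of the 5 later stages in H3K27ac, where 67.6% of all coding genes did, and all 38 did so in H3K4me1, where 70.5% did. The members together took 0.305 to 0.344% of the covered bases of the later H3K27ac lists (113 to 142 kb) and 0.305 to 0.330% of the H3K4me1 lists (129 to 166 kb). The median member had a mean later share of 58.7 bp per Mb in H3K27ac, against 27.2 for all coding genes, and of 55.9 against 24.4 in H3K4me1. The members' territories were also longer, with a median of 92.9 kb against 45.8 kb. Per length, the median member had 3.18% of its territory under H3K27ac peaks, against 1.57% for all genes, and 25 of 38 lay above that median. For H3K4me1 the values were 3.47% and 1.85%, with 25 of 38 above.

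Per length, the most densely covered members were genes with short territories, apart from Igf2. Tssc4, which lies in the Kcnq1 cluster, had 53.2 to 66.9% of its 3.14 kb territory under H3K27ac peaks at the later stages. Nnat, which codes for the small membrane protein neuronatin, had 37.5 to 62.2% of 6.22 kb, and Phlda2, which restrains placental growth, had a mean of 29.5% of 7.92 kb. Cdkn1c, a CDK inhibitor that restrains growth, followed with 19.4 to 24.3% of 24.7 kb, and Igf2, the fetal growth factor, with 14.1 to 18.6% of 77.0 kb. Tssc4, Nnat, Phlda2, Cdkn1c and Igf2 led in this order in both marks, and their ranges at the later stages overlapped only between Tssc4 and Nnat in H3K27ac. In H3K4me1 those of Tssc4 and Nnat, and of Phlda2 and Cdkn1c, overlapped. At the lower end, Usp29, Asb4, Ddc and Snrpn had mean H3K27ac coverage of 0.450, 0.519, 0.551 and 0.569%.

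**Figure D1:**
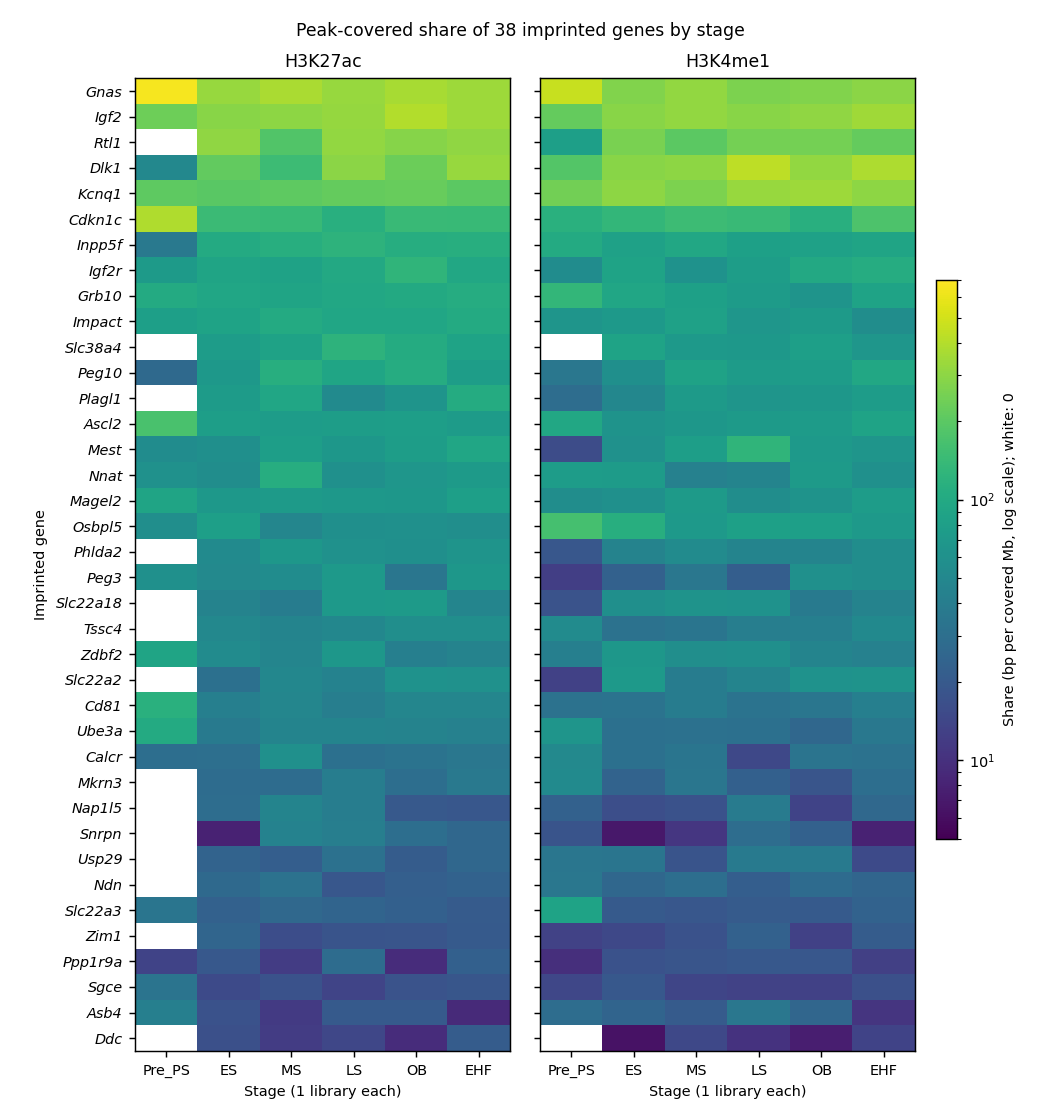
Share of each of the 38 imprinted genes (rows, ordered by mean later H3K27ac share) at the 6 stages (columns, 1 library each) for H3K27ac and H3K4me1, in bp per covered Mb on a log colour scale, with white for 0. Gnas, Igf2, Rtl1, Dlk1 and Kcnq1 form the upper rows, and 14 members are at 0 in the Pre_PS H3K27ac column.

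Among genes of growth signalling, Igf2 ranked 2 of 38 by mean later H3K27ac share and 5 of 38 per length of territory. The per-length ranks were 16 for Inpp5f, 22 for Igf2r and 25 for Grb10, which have longer territories (117, 125 and 223 kb). Igf2 (chr7:142650768-142666816) had H3K27ac shares of 235 bp per Mb at Pre_PS and 291, 302, 321, 393 and 339 at ES, MS, LS, OB and EHF. Its H3K4me1 shares were 216, then 289, 313, 293, 308 and 349. The OB and EHF H3K27ac values both lay above ES and MS, and Igf2 ranked at the 99.0th percentile of all genes. Igf2r (chr17:12682406-12769706), the receptor that clears the IGF2 protein, had H3K27ac shares of 73.2, then 89.2, 86.8, 98.3, 127 and 96.1, with OB highest. For H3K4me1 it had 55.1, then 87.4, 61.5, 78.8, 98.7 and 107, so OB and EHF again lay above ES and MS. Grb10 (chr11:11930499-12037428), an adaptor protein that restrains insulin and growth factor signalling, varied by 1.19 times between its lowest and highest later H3K27ac share: 103 at Pre_PS, then 93.1, 89.9, 96.7, 101 and 107. In H3K4me1 it had 132, then 92.9, 83.4, 75.3, 64.4 and 87.6, and Pre_PS was highest. Inpp5f (chr7:128611181-128696436), a phosphoinositide phosphatase, had H3K27ac shares of 36.9, then 103, 110, 121, 109 and 110, and H3K4me1 shares of 102, then 85.1, 97.2, 82.8, 84.0 and 90.2. Its later values were nearly level in both marks.

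Gnas (chr2:174284320-174346744), which codes for the stimulatory G protein alpha subunit and for other products from further upstream starts, had the largest mean H3K27ac share of the 38. It had 660 bp per Mb at Pre_PS and 328, 377, 325, 368 and 339 later, with H3K4me1 shares of 460, then 276, 315, 265, 273 and 294. Pre_PS was highest in both marks, where the Gnas peaks covered 9.41 and 10.8 kb, and the later stages were nearly level at 12.3 to 13.7 kb of H3K27ac. Per length it ranked 7 of 38, with a mean of 7.48% of its 178 kb territory covered at the later stages.

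In the Kcnq1 cluster, Cdkn1c (chr7:143458339-143461059) had H3K27ac shares of 391 at Pre_PS and 145, 139, 114, 142 and 140 later. Its H3K4me1 shares were 115, then 132, 149, 143, 114 and 175. Pre_PS was highest in H3K27ac only, and the covered length there, 5.57 kb, was close to the 4.79 to 6.00 kb of the later lists, which covered more of the genome. Kcnq1 (chr7:143106877-143427050), a potassium channel subunit, had H3K27ac shares of 207, then 197, 206, 217, 221 and 201, a range of 1.12 times over the later stages. Its H3K4me1 shares were 243, then 303, 263, 328, 339 and 300, lowest at MS among the later stages. The 9 members of the Igf2 to Osbpl5 stretch together had 974 to 1134 bp per Mb of H3K27ac at the later stages, or 35.0 to 42.7 kb. Ascl2, a transcription factor of placental precursors, varied least of the 38 in H3K27ac, with later shares between 75.9 and 79.7 after 170 at Pre_PS.

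Peg10 (chr6:4747306-4760517) and Sgce (chr6:4674350-4747204), a retrotransposon-derived gene and a sarcoglycan whose ends lie 101 bases apart, share 1 merged region across both ends (chr6:4746583-4749744 in H3K27ac). Peg10 had H3K27ac shares of 26.9, then 69.4, 110, 91.7, 107 and 78.1, and H3K4me1 shares of 35.8, then 58.1, 87.0, 75.9, 76.7 and 97.2. Sgce had H3K27ac shares of 33.3, then 15.3, 17.4, 13.9, 17.6 and 18.6, and H3K4me1 shares of 14.2, then 19.5, 14.0, 13.2, 13.0 and 16.7. The border between their territories runs through that shared region. Mest (chr6:30733506-30748466), an alpha/beta hydrolase family gene, had H3K27ac shares of 55.8, then 59.0, 80.5, 68.9, 77.7 and 94.0, and H3K4me1 shares of 15.7, then 60.8, 80.0, 127, 71.1 and 65.7, with LS highest. Plagl1 (chr10:13090832-13131694), a zinc finger transcription factor, was at 0 in H3K27ac at Pre_PS and had 75.1, 93.2, 53.3, 64.6 and 105 later. In H3K4me1 Plagl1 had 29.2, then 49.0, 74.5, 65.4, 69.0 and 77.4. Nnat (chr2:157560078-157562525) had H3K27ac shares of 60.4, then 56.4, 108, 59.7, 67.1 and 73.4, with MS apart from the rest. Its H3K4me1 shares, 77.1, then 74.9, 43.9, 46.8, 74.4 and 59.9, were lowest at MS. Impact, an inhibitor of the GCN2 kinase pathway, had H3K27ac shares of 81.3, then 87.6, 102, 93.2, 93.5 and 103, and H3K4me1 shares of 65.3, then 70.7, 83.9, 66.5, 74.0 and 56.9. It varied by 1.18 times over the later H3K27ac lists and by 1.47 times over the H3K4me1 lists.

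In the Dlk1 to Rtl1 cluster, H3K27ac was lowest at MS among the later stages. Dlk1 (chr12:109452485-109463336), a Notch-like transmembrane protein of progenitor cells, had H3K27ac shares of 49.9 bp per Mb at Pre_PS and 213, 147, 296, 231 and 325 at ES, MS, LS, OB and EHF. The covered lengths were 0.712 kb, then 8.85, 5.28, 12.5, 8.42 and 11.8 kb, so MS was lowest of the later stages on both scales. Rtl1 (chr12:109564900-109604418), a retrotransposon-derived gene of the placenta and muscle, was at 0 at Pre_PS and had 307, 184, 316, 287 and 307 later, again lowest at MS. In H3K4me1 the later Dlk1 shares were 290, 304, 424, 312 and 384 after 187 at Pre_PS, and those of Rtl1 were 258, 200, 249, 248 and 216 after 81.7. By share, Dlk1 thus had no dip at MS in H3K4me1, and Rtl1 was lowest there in both marks. By covered length this differed. H3K4me1 of Dlk1 was lowest at MS, with 13.4 kb against 14.3 to 21.8 kb at the other later stages. That of Rtl1 was lowest at EHF, with 8.45 kb against 8.87 kb at MS. Territories were drawn among coding genes only, so the Rtl1 values also took in peaks inside the non-coding transcripts Meg3 and Rian. In H3K27ac, the region chr12:109541858-109544685 inside Meg3 had 2.69, 1.21, 2.78, 1.27 and 1.56 kb covered from ES to EHF. The region chr12:109609957-109613427 inside Rian had 3.26, 0.659, 3.29, 3.26 and 1.18 kb.

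Part of the lower Dlk1 value at MS lay in regions upstream of the gene. Its territory held 16 H3K27ac regions, merged over the 6 stages, and 5 of them, 34.3 to 58.0 kb before the gene, had a peak at ES, LS, OB and EHF and none at MS or Pre_PS. The farthest was chr12:109393688-109394456, with 0.631, 0.711, 0.427 and 0.714 kb covered at those 4 stages, and the nearest was chr12:109417225-109418161, with 0.897, 0.815, 0.835 and 0.681 kb. At MS, H3K4me1 peaks covered 0.429 to 0.831 kb of each of these 5 regions. Over all members, 20 H3K27ac regions were present at 4 of the 5 later stages, and MS was the missing stage in 13. Over all genes this held for 2061 of 4685 such regions. The MS list had the fewest peaks and covered bases of the later H3K27ac lists, 30072 and 35.9 Mb, and the part of list size in the Dlk1 values was not tested.

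**Figure D2:**
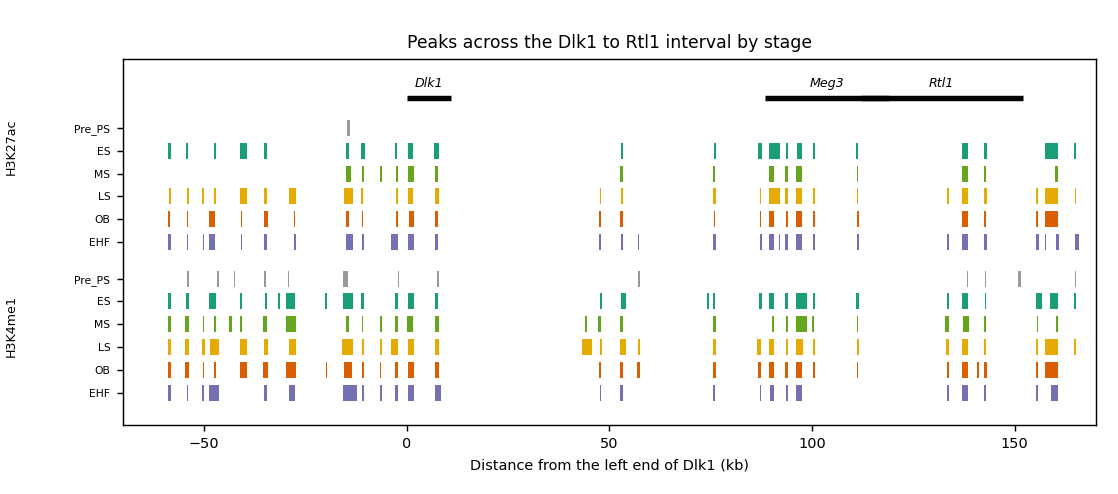
Peaks (bars) of each stage in H3K27ac and H3K4me1 along the interval from 70 kb before to 170 kb after the left end of Dlk1, with distance in kb; black bars mark Dlk1, Meg3 and Rtl1. The MS row of H3K27ac lacks the 5 bars between 34.3 and 58.0 kb before Dlk1 that the ES, LS, OB and EHF rows hold, while the MS row of H3K4me1 holds them.

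The interval between Dlk1 and Meg3, where the control region of the cluster lies in the mouse, held a peak at chr12:109528120-109528768 in H3K27ac at each of the 5 later stages, 0.447 to 0.605 kb wide and 36.1 kb from the Rtl1 end. An H3K4me1 peak of 0.475 to 0.601 kb lay there at the same stages. Neither mark had a peak there at Pre_PS. Meg3, the long non-coding transcript made from the maternal copy, had no peak on its first start window at any stage in either mark. Peaks of both marks began 862 to 1676 bases after that start at each later stage, and others ended before it at ES, LS, OB and EHF.

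Few members differed between late and early stages in the full lists. The late over early ratio is the mean share at OB and EHF divided by the mean share at ES and MS, and a fold of 1.5 was used to name a difference. In H3K27ac, 2 of 38 members were higher late, Dlk1 (1.54) and Slc22a2 (1.54), where 8.66% of 17119 genes with coverage were. Nap1l5 (0.513) alone was lower late, where 11.6% of all genes were. In H3K4me1, 2 of 38 were higher late, Peg3 (1.98) and Snrpn (1.77), where 6.79% of 17798 genes were, and none of the 38 was lower late, where 12.5% were. The median ratio of the members was 1.03 in H3K27ac and 1.02 in H3K4me1, the same as for all genes. Both late shares lay above both early shares in 11 members in H3K27ac, against 20.2% of all genes, and below in 4, against 12.8%. In H3K4me1 they lay above in 5, against 14.4%, and below in 2, against 13.2%. Several of these calls rested on the choice of stage or of peaks. Without MS the Dlk1 ratio was 1.30, and without EHF it was 1.28. The Dlk1 ratio was 1.35 in lists cut to the same number of peaks, 1.20 in the upper 50% of peaks, 1.49 with territories to 50 kb and 1.43 as undivided covered bases. Without ES the Slc22a2 ratio was 1.25, and as undivided covered bases it was 1.47. Cutting each H3K27ac list to its 13398 peaks of highest q gave 10 members higher late, where 10.7% of genes were, and the upper 50% of peaks also gave 10, where 9.38% were. Those cut lists hold the stronger peaks only, and Dlk1 was among the members below the fold there. A fold of 2 left no member called in H3K27ac or H3K4me1.

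**Figure D3:**
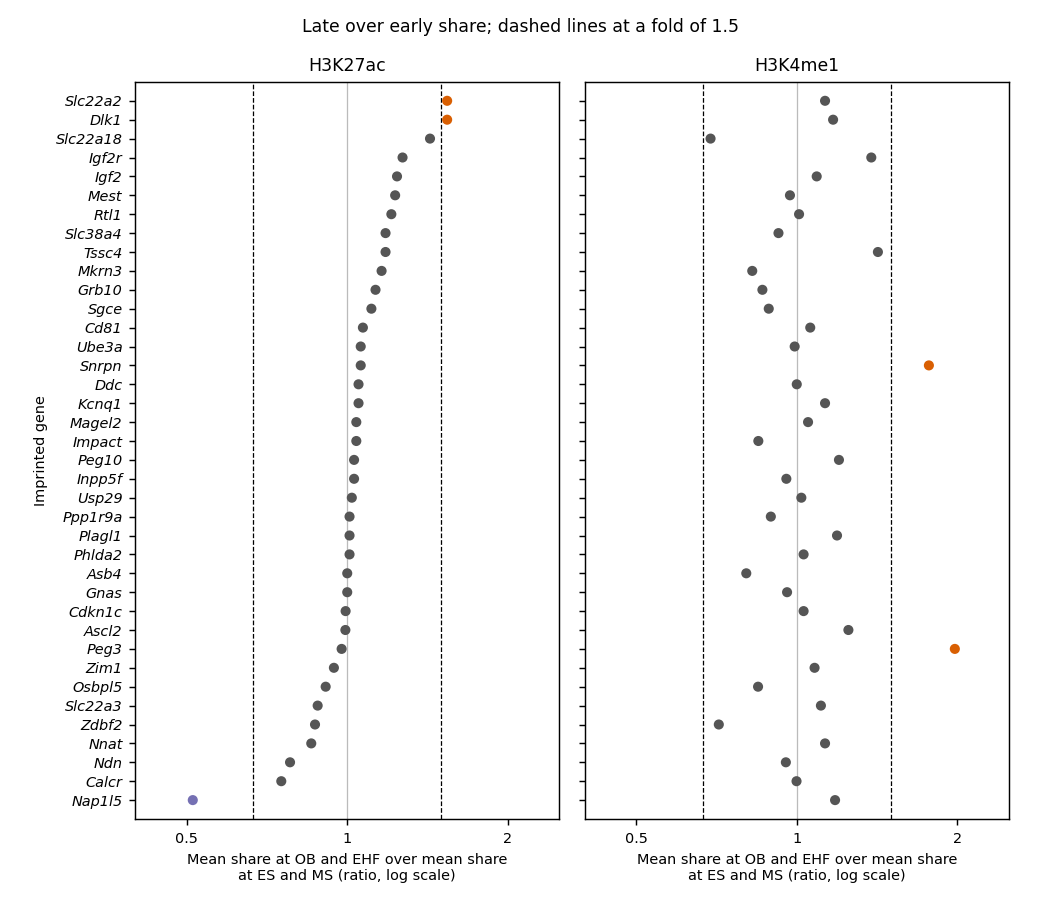
Ratio of the mean share at OB and EHF over the mean share at ES and MS for each of the 38 imprinted genes, on a log axis, for H3K27ac and H3K4me1; points in orange are higher late and in purple lower late at a fold of 1.5 (dashed lines). Most points lie between the lines, with Slc22a2, Dlk1 and Nap1l5 outside in H3K27ac and Peg3 and Snrpn in H3K4me1.

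Slc22a2 (chr17:12584189-12628489), an organic cation transporter of the Igf2r cluster, was at 0 in H3K27ac at Pre_PS and had shares of 30.7, 49.1, 44.7, 61.7 and 61.1 bp per Mb later. The region at chr17:12635954-12637874, 7.46 kb from the gene, had no H3K27ac peak at ES and 1.76, 1.88, 1.17 and 1.89 kb of peaks from MS to EHF. An H3K4me1 region of 2.17 kb that spans it (chr17:12635829-12638001) was fully covered already at ES. Slc22a2 had H3K4me1 shares of 13.1, then 70.5, 40.2, 46.9, 61.8 and 63.8, highest at ES. Nap1l5 (chr6:58905233-58907126), a nucleosome assembly protein family gene, was at 0 in H3K27ac at Pre_PS and had 29.5, 46.4, 40.8, 19.8 and 19.1 later. The peak at its start was present at all 5 later stages with 0.690 to 0.793 kb, whereas a region at chr6:58879565-58880584, 24.6 kb away, had peaks at ES, MS and LS only. Among the upper 50% of peaks by q the Nap1l5 ratio was 2.02, in the other direction. In H3K4me1 Nap1l5 had 23.0, then 16.4, 17.4, 38.8, 13.4 and 26.4, with no split of late from early.

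Peg3 (chr7:6703892-6730462), a zinc finger protein of maternal behaviour and growth, had H3K4me1 shares of 12.6, then 23.2, 35.5, 22.0, 60.1 and 56.2. The H3K4me1 peak at its start was 1.20 to 1.25 kb wide at ES, MS and LS, and 2.24 and 2.27 kb at OB and EHF. The merged region ran over chr7:6728316-6730614, so most of it lay inside Peg3. In H3K27ac, Peg3 had 60.2, then 51.0, 55.4, 70.8, 35.1 and 68.8, with OB lowest and no such split. The peak lies across the ends of Peg3 and Usp29, which are 96 bases apart and are read away from each other, so the sequence printed above for Peg3 spans the start of Usp29, a ubiquitin protease gene, on the opposite strand. Snrpn (chr7:59982495-60450177), a small nuclear ribonucleoprotein gene of the Prader-Willi region, was at 0 in H3K27ac at Pre_PS and had 8.09, 44.3, 41.2, 30.0 and 25.8 later. Its H3K4me1 shares were 18.2, then 6.84, 10.9, 29.0, 23.4 and 7.96, so its stages overlapped although its ratio passed the fold. The gene Snurf shares the left end of Snrpn and takes the bases around the main Snrpn start, and without Snurf in the gene set the H3K4me1 ratio of Snrpn was 1.16.

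In the full lists, peaks at gene ends were more frequent among the members than among all genes, while their start peaks ranked lower within a list. A gene-end peak touches the bases within 1 kb of either end of a gene. In H3K27ac, 31 of 38 members had such a peak at each of the 5 later stages, where 60.5% of all genes did, and 4 (Snrpn, Slc22a18, Asb4 and Ddc) had none at the 6 stages, where 32.6% did. In H3K4me1, 31 of 38 had it at each later stage, where 62.4% did, and 3 (Snrpn, Asb4 and Ddc) had none, where 30.0% did. Rtl1, Slc22a2 and Zdbf2 had end peaks at some of the later stages in both marks, and Slc22a18 at Pre_PS only in H3K4me1. When each H3K27ac list was cut to the same 13398 peaks of highest q, 13 of 38 members had an end peak at all later stages. This was a smaller share than the 44.6% of genes, so the direction was reversed. In the upper 50% of each list, 20 of 38 did, close to the 51.4% of genes.

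The strength of start peaks was read from their fold. For each gene with a start window (250 bases before to 50 after a RefSeq start) touched at all 5 later stages, the percentile of the peak's fold among all peaks of its list was taken, and the median over the 5 stages was kept. Fold is the authors' deposited ratio over local background. In H3K27ac, 23 of the 32 members with windows had a value, and their median was 66.9, against 82.2 for 10117 coding genes. Of these, 19 lay below the median of all genes. In H3K4me1, 24 members had a median of 73.8, against 81.6 for 10304 genes, and 15 lay below. All 10 paternally expressed members with a value lay below the median of all genes in each mark (medians 64.9 and 64.1). Of the maternally expressed members, 7 of 10 lay below in H3K27ac (median 69.5) and 4 of 11 in H3K4me1 (median 86.9). The difference between the expression groups was not tested, and Peg3 and Usp29 share their peak.

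**Figure D4:**
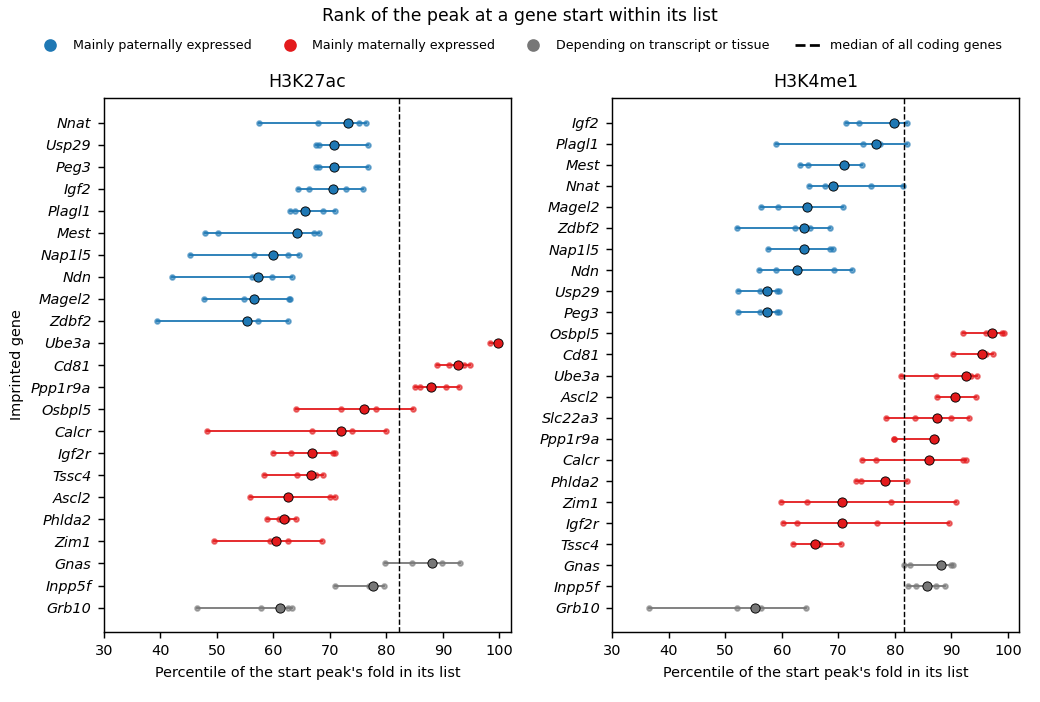
Percentile of the fold of the start peak within its list for each imprinted gene with a start peak at all 5 later stages; small points are stages, large points their median, colours the expression group, and the dashed line the median of all coding genes (82.2 in H3K27ac, 81.6 in H3K4me1). The 10 paternally expressed genes lie left of the line in both panels, and Ube3a, Cd81, Gnas and Ppp1r9a lie right of it in both.

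Ube3a, a ubiquitin ligase gene that is imprinted in neurons, had the highest H3K27ac percentile of the members, 99.7, with folds of 26.2, 23.1, 37.6, 23.3 and 37.5 from ES to EHF. Cd81, a tetraspanin gene, followed at 92.6, then Gnas at 88.0 and Ppp1r9a, a neuronal actin-binding protein gene, at 87.9. The lowest were Zdbf2 at 55.3 and the neighbours Magel2 at 56.5 and Ndn at 57.2, a pair of MAGE family genes of the Prader-Willi region. Folds at the Ndn start were 6.95, 5.94, 8.54, 8.82 and 8.44, and each lay below the Ube3a fold of the same stage. In H3K4me1, Osbpl5 (97.2), Cd81 (95.4), Ube3a (92.5) and Ascl2 (90.7) were highest, and Grb10 (55.2), Peg3 and Usp29 (57.4) lowest. Ascl2 ranked at 62.6 in H3K27ac and 90.7 in H3K4me1, the same start in both cases.

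Some members with several starts carried a mark at only some of them. Over the 53 member starts, 31 (58.5%) were touched by an H3K27ac peak at all later stages, where 56.1% of all coding starts were, and 33 (62.3%) by an H3K4me1 peak, where 57.3% were. Starts marked in H3K27ac at all later stages had a median of 16 CG dinucleotides in the 250 bases before them, and starts never marked had 4. For all coding genes these medians were 18 and 2. Of 12 members with more than 1 start, 6 (Igf2, Mest, Grb10, Osbpl5, Calcr and Zdbf2) had a start marked by H3K27ac at all later stages beside a start that was not, as did 965 of 2761 coding genes with several starts. In H3K4me1 this held for 5 of the 12 and for 967 of the 2761. The starts of a gene are not independent, since several lie within the same peak.

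For Igf2, the most upstream start, printed above with its 1 CG dinucleotide, had no peak of either mark at any stage. The other 3 starts were touched by the same H3K27ac peak of 4.16 to 7.81 kb at every later stage, and the third, with 22 CG dinucleotides, was fully covered in each. At Pre_PS the third start was covered by H3K4me1 alone, with a floor peak. For Mest, the second start was fully covered by both marks at all later stages, and by H3K27ac over 81.3% at Pre_PS. The first Mest start had H3K27ac on 0, 69.7, 5.67, 34.3 and 24% of its window from ES to EHF, and H3K4me1 on 54.7, 36.3, 67, 100 and 100%.

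Zdbf2, a zinc finger gene whose imprint is set through a far upstream transcript, had lasting H3K27ac only at its start without the hexamer. Its second start, with no hexamer and 26 CG dinucleotides, was fully covered by H3K27ac at all 6 stages. Its first start, with 3 hexamers, had H3K27ac at LS only, in a peak of 0.440 kb and fold 4.54. H3K4me1 covered 100, 84, 100 and 98% of the first window at ES, MS, LS and OB and none at EHF. Those peaks were 0.333 to 0.402 kb wide and ranked at the 4.88th to 25.0th percentile by fold, so this start was marked by weak and narrow peaks. Among all member starts, 7 of the 9 with the hexamer had H3K27ac at all later stages, as did 1900 of 2174 over all coding genes.

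**Figure D5:**
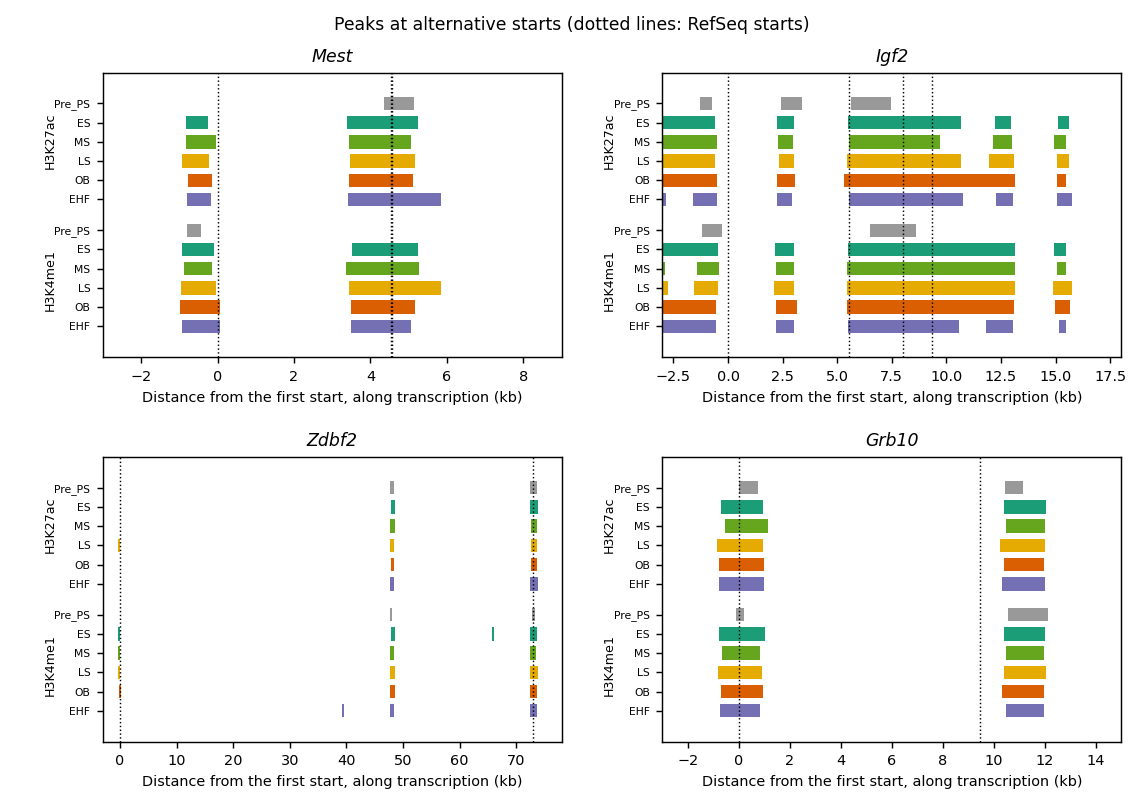
Peaks (bars) of each stage in H3K27ac and H3K4me1 around the starts of Mest, Igf2, Zdbf2 and Grb10, by distance in kb along transcription from the most upstream RefSeq start; dotted lines are RefSeq starts. The most upstream Igf2 start lies between bars in all 12 rows, and the bars near the second Grb10 start begin 792 bases or more after it.

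Osbpl5, a lipid transfer protein gene, was fully covered at the first and the third of its starts by both marks at all later stages and had none at the second, which held 1 CG dinucleotide. Calcr, the calcitonin receptor gene, was covered at its second start (24 CG dinucleotides) and not at the first (2). Gnas, with 4 starts, was marked at all of them at each later stage, and Ppp1r9a at both of its starts. The other extreme had no peak in the 12 lists, which held for both starts of Ddc, both of Asb4 and the single starts of Slc22a18 and Slc22a2. It also held for the first 3 of 4 Snrpn starts, and the last Snrpn start was touched by H3K27ac at MS only (33.7% of its window). Slc38a4, an amino acid transporter gene, had H3K27ac on its first window at ES, LS and EHF, and no peak on its other 2 windows. Mkrn3 and Dlk1 were touched at 4 stages in each mark, and Slc22a3 at ES, MS and LS in H3K27ac and at all 5 later stages in H3K4me1.

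At some starts near imprinting control regions, peaks lay just after the start and not on it. At the most downstream Snrpn start, which is also an end of Snurf, H3K27ac peaks of 0.727 to 1.19 kb ran at each later stage to 1134 to 1331 bases after the start. They began 429 or more bases after it at ES, LS, OB and EHF, and 51 bases before it at MS. H3K4me1 peaks of 0.624 to 0.868 kb began 342 to 605 bases after it. At the second Grb10 start, peaks of both marks began 792 to 1051 bases after the start at every later stage, were 1.53 to 1.78 kb wide in H3K27ac, and left its window uncovered in all 12 lists. The first Grb10 start, with 40 CG dinucleotides, was fully covered by both marks at all later stages.

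Kcnq1ot1 and Airn, non-coding transcripts of the clusters, had peaks at or just after their starts. Kcnq1ot1 starts inside Kcnq1, and its H3K27ac peaks ended 1143 to 1267 bases after the start and touched the start window at ES and EHF only. Airn starts inside Igf2r, where its H3K27ac peaks began 2 to 409 bases after the start and ended 1129 to 1591 bases after it. H19 lies beside Igf2 and had peaks of both marks within 1 kb of its right end (chr7:142575530-142578146) at all later stages. Mirg and Peg13 also had peaks of both marks at 1 end at all later stages, and for Mirg this was the far end, since its start window had no peak in the 12 lists. Rian had only an H3K4me1 end peak at Pre_PS, and Snhg14 had no end peak in the 12 lists. Nespas was not analysed here.

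The regions in the members' territories recurred across stages. Merged over stages, 154 H3K27ac regions lay there, of which 78 (50.6%) were present at all later stages, where 43.5% of 51619 regions were. Of 205 H3K4me1 regions, 98 (47.8%) were, where 35.0% of 77300 were. Regions seen at 1 stage made up 14.9% of the members' H3K27ac regions, against 25.5% of all, and 25.4% of the H3K4me1 regions, against 36.4%. Gnas had all 4 and Cdkn1c all 3 of its H3K27ac regions at all later stages, Kcnq1 had 6 of 19 and Dlk1 6 of 16. The marks largely shared their bases. At the later stages 83.0 to 94.3% of the members' H3K27ac bases were also under H3K4me1 peaks, against 84.2 to 92.6% for all genes. By member, this share ranged from 36.3% for Snrpn and 65.6% for Ddc to 99.1% for Sgce.

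The summed shares of the expression groups at Pre_PS were carried in part by a few genes. The 18 paternally expressed genes had 782 bp per Mb there (11.1 kb) and 1542 to 1858 later (56.8 to 76.6 kb). The 16 maternally expressed genes had 1237 (17.6 kb) and then 968 to 1079 (35.2 to 42.3 kb). Cdkn1c alone gave 391 of the 1237, and Dlk1 and Rtl1 together went from 49.9 to between 331 and 632 of the paternal sums. The Rtl1 part includes peaks inside Meg3, which is made from the maternal copy, and inside Rian. No difference between the groups was tested. In H3K4me1 the paternal group had 999, then 1517 to 1719, and the maternal group 1066, then 987 to 1139. Of all 38, 10 had a higher H3K27ac share at Pre_PS than at every later stage, where 36.9% of genes did, among them Cdkn1c, Ascl2, Gnas, Ube3a and Cd81. A further 14, among them Plagl1, Nap1l5, Rtl1, Phlda2 and Snrpn, had covered bases later and none at Pre_PS, where 39.0% of genes did. In H3K4me1, 12 were highest at Pre_PS, where 33.3% of genes were, and 2 (Slc38a4 and Ddc) had none, where 21.4% had none. Floor peaks made up 47.8% of the members' H3K4me1 bases at Pre_PS, and the part of list size and floor peaks in these values was not tested.

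Of 18 genes that set or keep imprints, 13 had an H3K27ac end peak at all later stages, where 60.5% of all genes did, and 14 an H3K4me1 end peak, where 62.4% did. In H3K27ac, Dnmt3l, a partner of the de novo DNA methyltransferases, was higher late (shares of 12.7 and 0 at ES and MS, 12.9 and 12.3 at OB and EHF). Dppa3, which protects the maternal genome after fertilisation, had H3K27ac at LS and OB only (6.95 and 12.6), so no ratio could be formed for it. Tet2, a methylcytosine oxidase, was lower late (49.3 and 63.2, then 43.1 and 29.2), and none of the 18 passed the fold in H3K4me1. Zfp57 had H3K27ac shares of 21.4 to 24.7 at the later stages and no end peak. Of 29 further imprinted coding genes, 4 were higher (Zrsr1, Mcts2, Klf14 and Th) and 4 lower (Ins2, Kcnk9, Atp10a and Htr2a) in H3K27ac, where 8.66 and 11.6% of all genes were. In H3K4me1, 4 were lower (Zrsr1, Pon3, Tspan32 and Atp10a), where 12.5% of all genes were. Of the 29, 19 had an H3K27ac end peak at all later stages, against 60.5% of all genes, and 20 an H3K4me1 end peak, against 62.4%.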

How the data were processed

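H3K27ac and H3K4me1 were profiled with CoBATCH at 6 stages, with 1 library for each stage and mark. The submitters' processing notes name Bowtie2, Picard, MACS2, deepTools and the mm10 build, without versions, settings or roles. Cell numbers and total fragments are not known here. Each deposited file is a broad peak list. Its deposited fold is the authors' ratio over local background, its −log10 p and −log10 q columns were deposited by the authors, and its deposited score was left aside. Fold and q were used only within a list. A sum over called peaks moves with how much was called, so covered kb stand beside shares.

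Shares, gene-end peaks and regions were computed with Python 3.11.15, numpy 2.4.6 and pandas 2.3.3 over all 21631 coding genes of the RefSeq GRCm38 table, which gives no strand or exons. An overlap of at least 1 bp counted as touching. Start windows and bases come from RefSeq (GRCm38.p6), which gave them for 32 members and not for Impact, Kcnq1, Rtl1, Cdkn1c, Sgce and Peg10. No comparison had replicates, so none was tested, and a fold of 1.5 was used to describe differences. The territory calculation was checked on a simulated genome. Genes given with every value were the 8 with the highest mean later H3K27ac share, those past the fold with stages that do not overlap, and 16 at cluster promoters. Starts printed as sequences were chosen after their values were seen. The members, lists and rules were chosen with earlier results of these data known. Alternatives covered the peaks used, the stages compared, the territory, the fold, the end distance and the overlap.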

Additional observations from a re-analysis of the deposited data

How the results depend on the processing

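No paired analysis was possible because each stage and mark had 1 library. Of 68 alternative counts of members, 36 stayed within 1.5 times the reported count and 32 did not, and for those 32 the cause was not tested. Most counts in this section stand without the share over all genes. They show how far the members' counts moved, and not a difference from other genes. With the same number of peaks in each list, H3K27ac gave 10 members higher late, 2 lower, 13 with a gene-end peak at all later stages and 11 with none, and H3K4me1 gave 2 lower. The upper 50% of peaks gave 10 higher, 4 lower, 20 with an end peak and 7 with none in H3K27ac, and 5 higher, 3 lower and 6 with none in H3K4me1. With Pre_PS and ES as early stages, 16 were higher and 6 lower in H3K27ac, and 8 and 4 in H3K4me1. Among all genes, 39.0% had H3K27ac at a later stage and none at Pre_PS, so these 16 are not read as a result about the members. MS alone as the early stage gave 4 lower in H3K27ac, and 4 higher and 1 lower in H3K4me1. EHF alone as the late stage gave 2 lower in each mark. Territories to 50 kb gave 1 higher and 2 lower in H3K27ac. A fold of 2 gave 0 higher and 0 lower in H3K27ac and 0 higher in H3K4me1.

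Further alternatives were chosen after seeing the data. ES alone gave 1 lower in H3K4me1, OB alone gave 4 lower in H3K27ac and 2 in H3K4me1, leaving out Snurf gave 1 higher in H3K4me1, and undivided covered bases gave 0 higher in H3K27ac and 1 lower in H3K4me1. The Nap1l5 H3K27ac ratio reversed to 2.02 in the upper 50% of peaks and to 1.32 with Pre_PS and ES as early stages. The Snrpn H3K4me1 ratio reversed to 0 in the upper 50% of peaks and to 0.899 with EHF alone. The Peg3 H3K4me1 ratio lay between 1.64 and 3.24 in all of the alternatives run for it. With 1 library a stage, differences between stages cannot be told apart from differences between libraries, and the Pre_PS lists, with fewer covered bases than the later lists, limit what could be seen there.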
